A study of Mus musculus with 3 samples.

Results

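Natural killer (NK) cells read their targets through germline-encoded receptors, and this section describes 10 of the genes for them in immune cells of the healthy mouse kidney. The genes were taken by name from the 32886 gene columns of the deposited count table, and all 10 were present: Klra4, Klra8, Klra9, Klre1, Klrb1c, Klrc1, Klrd1, Klrk1, Klrg1 and Ncr1. The cells came from untreated wild-type male C57BL/6J mice of 10 weeks whose kidneys were perfused and dissected. Cortex, the outer part of the medulla (OM) and its inner part (IM) were digested apart, and cells were sorted for CD45, the common leukocyte antigen. Droplet single-cell RNA sequencing with a 3′ kit was run at 3 sites (the Aachen, Bonn and Hamburg datasets), so that 3 compartments in 3 datasets gave 9 libraries with 20266 cells in 23 deposited clusters. The dataset was the replicate throughout. The table does not tie cells to single mice. The p-values therefore rest on how alike the compartment differences were across datasets, and not across mice.

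The receptors fall into activating and inhibitory types, and the balance of their signals sets whether an NK cell responds. The Ly49 family (Klra genes) binds class I major histocompatibility molecules or their viral mimics. Ly49D (Klra4) and Ly49H (Klra8) are activating and signal through the adaptor DAP12 (Tyrobp), whereas Ly49I (Klra9) is inhibitory. NKG2A (Klrc1) pairs with CD94 (Klrd1) into an inhibitory receptor for the non-classical class I molecule Qa-1 (H2-T23). NKG2D (Klrk1) is an activating receptor for stress-induced ligands and uses DAP10 (Hcst), in mice also DAP12. NK1.1 (Klrb1c) and NKp46 (Ncr1) are activating and serve as defining markers of mouse NK cells. KLRG1 (Klrg1) is an inhibitory receptor for cadherins that marks mature NK cells and many group 2 innate lymphoid cells (ILC2). KLRE1 (Klre1) forms heterodimers with KLRI1 or KLRI2.

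Of the members, 9 lie on chromosome 6 and Ncr1 lies on chromosome 7 (build GRCm38, the assembly also called mm10, to which the reads had been aligned). On chromosome 6, 8 members share a stretch of 1.41 Mb from 128778485 to 130193112, the NK gene complex, and Klrg1 (122270596 to 122282882, minus strand) lies 6.50 Mb before it. Within the complex, Klra4 spans 130043731 to 130067271, Klra8 spans 130115226 to 130129898 and Klra9 spans 130178675 to 130193112, all on the minus strand. Ncr1 spans 4337724 to 4345164 on the plus strand of chromosome 7. The 3 Ly49 genes arose by duplication, and the stretches before their starts still resemble each other. They are shown because 2 of these genes (Klra4 and Klra8) were nearly confined to 1 NK cluster and the third was not. Each line gives the 250 bases before the RefSeq start of the gene (GRCm38.p6, minus strand, written 5′ to 3′), from chr6:130067272-130067521 for Klra4, chr6:130129899-130130148 for Klra8 and chr6:130193113-130193362 for Klra9, with capitals, within the aligned stretch of Klra8 and Klra9, where the base differs from Klra4 or has no partner there.
Klra4: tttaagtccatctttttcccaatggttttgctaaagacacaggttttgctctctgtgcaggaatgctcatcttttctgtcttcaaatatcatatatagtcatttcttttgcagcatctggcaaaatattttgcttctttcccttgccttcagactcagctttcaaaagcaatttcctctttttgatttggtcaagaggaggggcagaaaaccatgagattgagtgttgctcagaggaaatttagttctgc
Klra8: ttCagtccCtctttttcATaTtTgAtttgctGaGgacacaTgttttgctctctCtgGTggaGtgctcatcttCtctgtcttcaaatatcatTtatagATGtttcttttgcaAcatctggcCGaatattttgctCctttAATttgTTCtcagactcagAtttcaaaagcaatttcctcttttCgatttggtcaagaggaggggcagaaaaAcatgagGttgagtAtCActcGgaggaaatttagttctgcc
Klra9: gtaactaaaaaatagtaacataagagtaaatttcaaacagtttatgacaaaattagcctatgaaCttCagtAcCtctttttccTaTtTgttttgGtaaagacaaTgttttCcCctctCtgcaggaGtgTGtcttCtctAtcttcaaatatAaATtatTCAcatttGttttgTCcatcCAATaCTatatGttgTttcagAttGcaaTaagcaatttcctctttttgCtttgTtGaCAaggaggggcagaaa
Klra8 matched Klra4 at 85.1% of 249 aligned columns. Klra9 matched Klra4 at 68.6% of 210 columns and its first 64 bases lay outside the alignment and are in lower case. The same window of Ncr1 (chr7:4337465-4337714, plus strand) is shown because Ncr1, of the members present in both NK clusters, stood farthest above the next cluster (35.2 CPM in Prolif._cell, with CPM defined below), with capitals at matches to the core motif of RUNX factors, TGTGGT on either strand.
Ncr1: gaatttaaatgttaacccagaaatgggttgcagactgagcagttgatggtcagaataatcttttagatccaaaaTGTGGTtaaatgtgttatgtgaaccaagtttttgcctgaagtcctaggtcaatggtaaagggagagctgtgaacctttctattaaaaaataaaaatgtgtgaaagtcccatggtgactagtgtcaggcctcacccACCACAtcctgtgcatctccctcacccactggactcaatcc
Ncr1 held 2 matches, and Klre1, Klrb1c, Klrc1 and Klrk1 held 1 each, while the 3 Ly49 windows held none. In all, 5 of the 8 members with a window held the motif, against 14.2% of 27025 windows searched across genes. A match of these letters is a description and not a measured binding site. Klrd1 and Klrg1 had no window in the sequence table.

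The deposited annotation gave 1133 NK cells (606 in NK_cell_1 and 527 in NK_cell_2), 5236 T cells in 4 clusters (T_cell_1 to T_cell_4) and 424 ILC2. A further T cell cluster, Malat+_T_cell with 430 cells, was left out of the T cell class. Library depth differed by site. The median NK cell held 865 UMIs in Aachen, 3142 in Bonn and 3340 in Hamburg, where a UMI counts 1 captured RNA molecule, and Aachen used an earlier chemistry version than the others, so that site and chemistry cannot be told apart. Aachen and Bonn values were whole, whereas only 0.118% of the non-zero Hamburg values were. A cell was counted as having a UMI of a gene at a value of 0.5 or more. The Bonn OM library held only 19 NK cells. Between libraries, 26 cell barcodes were shared among the 6793 NK, T and ILC2 cells.

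The NK label was checked against its markers. Both NK clusters carried Ncr1 and Klrb1c, but these are members of the set described here and give no separate check. CPM are the UMIs of a gene scaled to the total UMIs of the same cells. Summed T cell markers (Cd3d, Cd3e, Cd3g, Trac and Trbc2) reached 35.7 to 303 CPM per dataset in NK_cell_1. They reached 183 to 688 CPM in NK_cell_2, against 2395 to 4410 CPM in T_cell_1. The other NK markers differed between the clusters. Eomes, a transcription factor of conventional NK cells, averaged 276 CPM in NK_cell_1 and 14.0 CPM in NK_cell_2. Gzma, which encodes granzyme A, averaged 10524 CPM and 175 CPM, respectively. NK_cell_2 therefore met only part of the marker list, and it is called here by its deposited name. ILC2 carried Gata3 at 720 CPM and Il1rl1, the interleukin-33 receptor, at 277 CPM.

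Across the 23 clusters, each of the 10 genes was highest in an NK cluster, and the clusters that came next differed between genes. Levels are CPM of the summed counts of a cluster, given as the mean over datasets. Since the clusters were made from the same genes in the same cells, these levels are a description without a test. At most 0.413% of the 4358 B cells had a UMI of a member (Klrd1 and Klrk1, at a median of 2369 UMIs), and the shares in the 5367 resident macrophages were 0.0559% to 2.14% at a median of 1574 UMIs. The resident macrophages were Macrophage_1 to Macrophage_3 and Isg+_Macrophage, and the 1043 Malat+_Macrophage cells were left out. In Isg+_Macrophage alone, 12.1% of the 273 cells had a Klrk1 UMI. The B cells and resident macrophages gave the background against which the other shares were read.

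**Figure D1:**
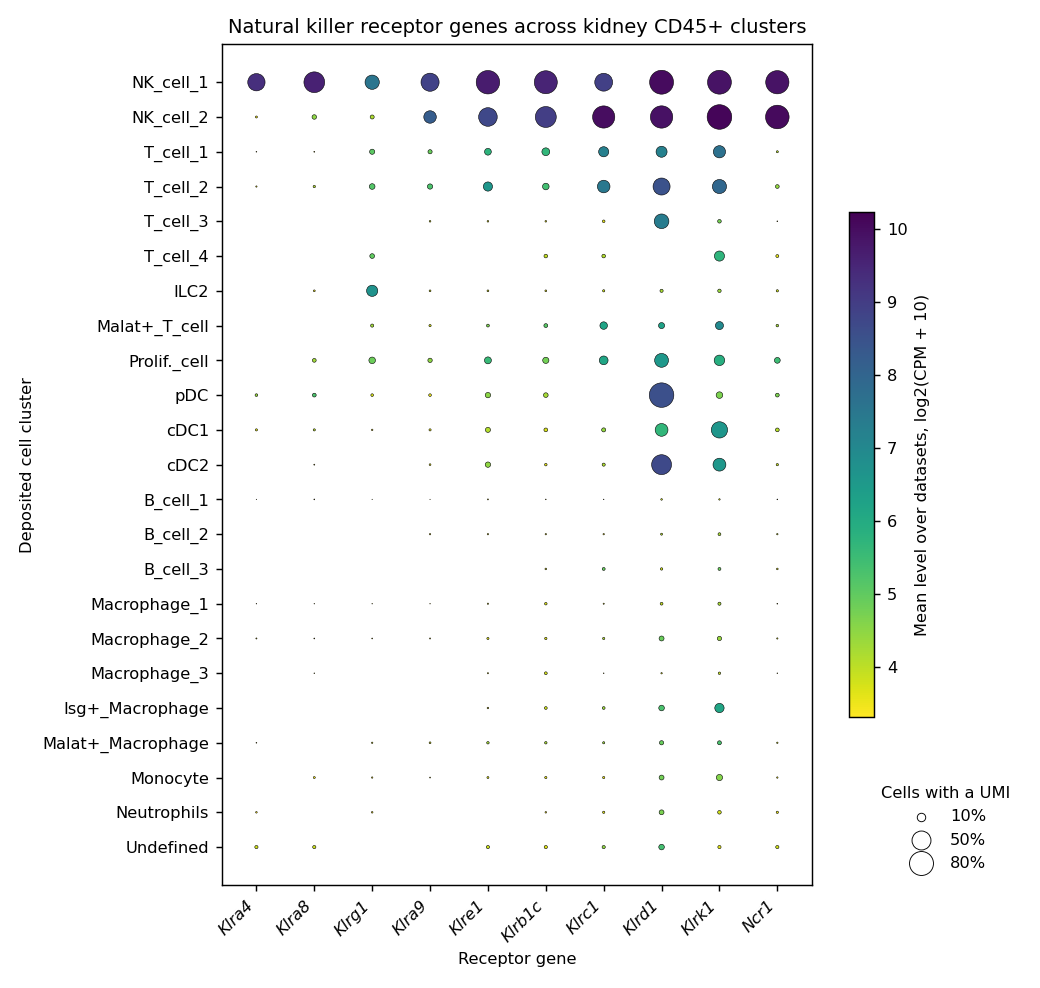
Level (colour, log2(CPM + 10), mean over datasets) and share of cells with a UMI (dot size) of the 10 receptor genes in each of the 23 deposited clusters. The darkest dots lie in the rows of NK_cell_1 and NK_cell_2. Klrd1 also stands out in pDC, cDC2 and T_cell_2, and Klrg1 stands out in ILC2. The largest Klrd1 dot is that of pDC (83.8% of cells, against 79.7% in NK_cell_1 and 69.4% in NK_cell_2).

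The activating Ly49 genes separated the NK clusters most. Klra4 was measured in NK_cell_1 at 354, 296 and 606 CPM in cortex, OM and IM of Aachen, at 904, 1521 and 628 CPM in Bonn, and at 520, 539 and 484 CPM in Hamburg. In NK_cell_2 it was at 0 in all 6 Aachen and Bonn libraries and between 2.15 and 4.01 CPM in the Hamburg libraries. Every NK_cell_1 library lay above every NK_cell_2 library. Only 3 of the 527 NK_cell_2 cells (0.569%) had a Klra4 UMI, compared with 41.7% of the NK_cell_1 cells.

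Klra8 followed the same pattern. Its NK_cell_1 levels ranged from 493 to 1034 CPM over the 9 libraries, and its NK_cell_2 levels ranged from 0 to 33.0 CPM. A UMI was found in 59.9% of NK_cell_1 cells and in 2.85% (15 cells) of NK_cell_2. The mean level in NK_cell_1 was 770 ± 139 CPM (SD, n = 3 datasets). The next cluster was pDC (plasmacytoid dendritic cells) at 28.6 CPM from 2 of 99 cells, whose datasets overlapped those of NK_cell_2 at 12.4 CPM. T_cell_2 stood at 7.39 CPM.

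The inhibitory Ly49 gene Klra9 was present in both NK clusters, at 455 ± 212 CPM (SD, n = 3) in NK_cell_1 and 290 ± 131 CPM in NK_cell_2, and the dataset ranges overlapped. It was higher in NK_cell_1 in 8 of 9 libraries. The ratio of NK_cell_1 to NK_cell_2 was 0.973 in Aachen, 2.24 in Bonn and 1.84 in Hamburg, so the clusters differed in 2 of 3 datasets. Klra9 counts need care. Of the 50-base words in the last 500 bases of its longest transcript, where these libraries read, 44.8% also occurred in another receptor gene of this kind, mostly Klra3, compared with 4.66% for Klra4 and 13.1% for Klra8.

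Klrg1 was the third member that separated the clusters. Its level was 177 ± 58.4 CPM (SD, n = 3) in NK_cell_1, with libraries from 82.6 to 367 CPM, and 0 to 18.2 CPM over the NK_cell_2 libraries. A Klrg1 UMI was found in 28.4% of NK_cell_1 cells and in 2.28% of NK_cell_2 cells.

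Klrc1 went the other way. NK_cell_2 held 1039, 1052 and 973 CPM in the Aachen, Bonn and Hamburg datasets, whereas NK_cell_1 held 434, 502 and 484 CPM. The datasets did not overlap, and NK_cell_2 was 2.39, 2.10 and 2.01-fold higher in the 3 datasets. All 9 libraries showed the same order. The words in the last 500 bases of Klrc1 were shared with its neighbour Klrc2 in 56.3% of cases, so reads from this end cannot always be told apart between the 2 genes.

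The other members were present in both NK clusters. Klre1 averaged 820 ± 224 CPM (SD, n = 3) in NK_cell_1 and 415 ± 120 CPM in NK_cell_2, and its datasets did not overlap (569 to 998 and 303 to 541 CPM). The ratio of NK_cell_1 to NK_cell_2 for Klre1 was 1.65 in Aachen, 2.50 in Bonn and 1.87 in Hamburg. Klrb1c averaged 739 ± 309 and 489 ± 199 CPM, respectively. Its dataset ranges overlapped, but within each dataset NK_cell_1 was higher, with ratios of 1.77, 1.54 and 1.27. Klrd1, the CD94 partner chain, stood at 1030 ± 573 CPM and 962 ± 502 CPM. Its spread followed the site, since NK_cell_1 measured 1659 CPM in Aachen, 891 CPM in Bonn and 540 CPM in Hamburg, and NK_cell_2 measured 1529, 783 and 573 CPM. Klrk1 averaged 941 ± 303 CPM in NK_cell_1 and 1109 ± 303 CPM in NK_cell_2, and Ncr1 averaged 944 ± 488 CPM and 1051 ± 384 CPM. For Klrd1, the datasets of both NK clusters overlapped those of cDC2 (conventional dendritic cells, mean 409 CPM, 289 to 594 CPM). Within datasets, Klrk1 was higher in NK_cell_2 in all 3 (1.10, 1.19 and 1.30-fold) and in 8 of 9 libraries, whereas Klrd1 and Ncr1 did not keep 1 order over the datasets.

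**Figure D2:**
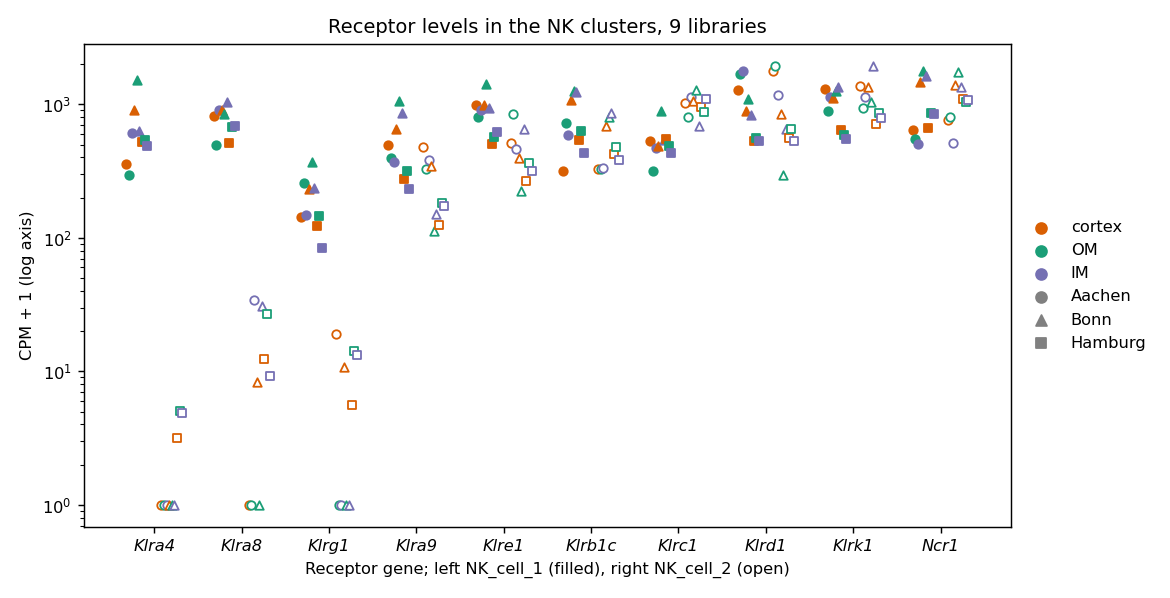
CPM + 1 on a log axis of each receptor gene in the 9 libraries, with NK_cell_1 filled on the left and NK_cell_2 open on the right; colour gives the compartment and shape the dataset. The clusters do not overlap for Klra4, Klra8 and Klrg1, and the order is turned for Klrc1; the Bonn OM points rest on 7 and 12 cells.

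Depth changes how many cells show a receptor, so the shares were repeated after drawing 500 UMIs from each cell, which kept 589 of the 606 NK_cell_1 cells and 517 of the 527 NK_cell_2 cells. At this depth Klra4 was seen in 20.2% of NK_cell_1 and 0.193% of NK_cell_2 cells, and Klra8 in 28.7% and 0.580%. Klrc1 was seen in 18.8% of NK_cell_1 and 36.4% of NK_cell_2 cells. Ncr1 was seen in 36.7% and 39.1%, and Klrk1 in 38.5% and 39.5%, but the datasets went opposite ways. Klrk1 was seen in 46.3% of NK_cell_1 and 59.9% of NK_cell_2 cells in Bonn, and in 31.8% and 25.9% in Hamburg. Ncr1 was seen in 54.2% and 45.8% in Bonn, and in 32.2% and 40.5% in Hamburg. The contrast between the clusters for Klra4, Klra8 and Klrc1 was thus also present at equal depth.

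Ly49 receptors are known to be expressed by subsets of NK cells in overlapping combinations. Among the thinned NK_cell_1 cells, 48.9% had no UMI of Klra4, Klra8 or Klra9, 36.2% had 1 of them, 14.1% had 2 and 0.849% had all 3. Of the NK_cell_2 cells, 89.4% had none and 10.4% had 1. The unthinned shares for NK_cell_1 were 18.2%, 32.0%, 34.2% and 15.7%, so the share of cells without a Ly49 UMI differed strongly with depth. Klra4 was found in 58.3% of the unthinned NK_cell_1 cells with Klra8 and in 26.0% of those without it in Hamburg. The corresponding shares were 55.1% and 38.9% in Bonn and 29.6% and 22.3% in Aachen. Klrc1 was less frequent among cells with Klra8 than among cells without it in the Bonn dataset (42.6% and 64.8%) and the Hamburg dataset (46.8% and 68.8%), but not in the shallow Aachen cells (35.2% and 22.3%). Cells of a dataset come from 3 libraries, which were pooled here, and differ in depth, so these shares are descriptions.

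**Figure D3:**
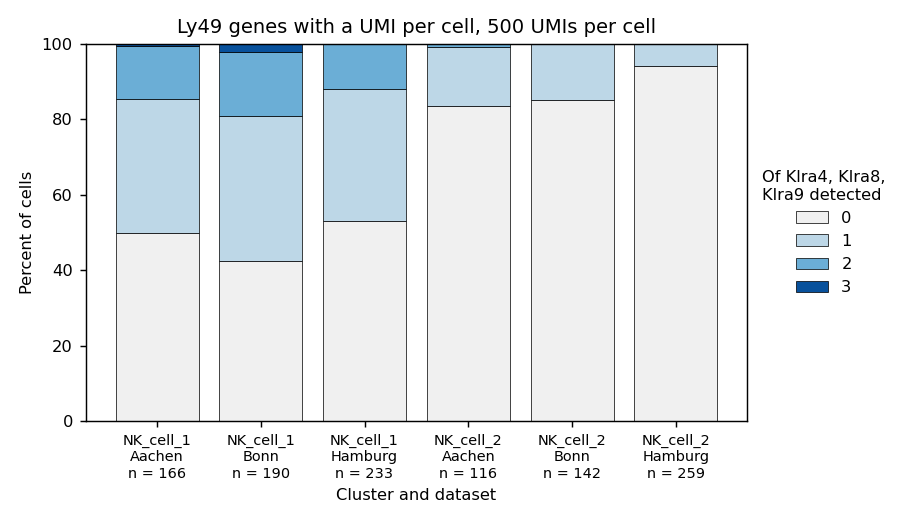
Percent of NK_cell_1 and NK_cell_2 cells per dataset in which 0, 1, 2 or 3 of the genes Klra4, Klra8 and Klra9 had a UMI, with every cell thinned to 500 UMIs. Between 42.6% and 53.2% of NK_cell_1 cells and between 83.6% and 94.2% of NK_cell_2 cells had none.

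The T cell clusters held a subset of these receptors. The genes of the NKG2A, CD94 and NKG2D chains each had their highest mean of these 4 clusters in T_cell_2. This cluster also had the most Cd8a (718 CPM) and Cd8b1 (1145 CPM) of the 4, which encode the chains of the CD8 coreceptor. Klrd1 measured 488, 303 and 260 CPM there in the Aachen, Bonn and Hamburg datasets, and 40.4% of the 1664 cells had a UMI. Klrk1 measured 321, 208 and 177 CPM, and Klrc1 measured 129, 171 and 200 CPM. T_cell_1, which of the 4 held the most Cd4 (157 CPM), had Klrk1 at 240, 204 and 141 CPM in the same datasets, Klrc1 at 96.9, 174 and 153 CPM and Klrd1 at 170, 154 and 92.0 CPM. The T_cell_1 and T_cell_2 dataset ranges overlapped for Klrc1 and Klrk1.

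T_cell_3 was different in that Klrd1 came without its partner. Klrd1 stood at 180, 143 and 141 CPM in the Aachen, Bonn and Hamburg datasets, a level like that of T_cell_1, and 29.9% of the 1036 cells had a UMI. Klrc1 stood at 0, 0 and 6.22 CPM, and 0.965% of the cells had a UMI. In T_cell_1, by contrast, Klrc1 was found in 40.6% of the cells with Klrd1 and in 8.92% of those without it. In T_cell_2 these shares were 33.1% and 14.5%. T_cell_3 also held little Klrk1, at 17.2 CPM, and no Klrg1 UMI was found in its 1036 cells, which allows a share of up to 0.290% (counting error only).

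T_cell_4, the smallest T cell cluster with 161 cells, had no UMI of Klrd1, Klre1 or the 3 Ly49 genes, which allows a share of up to 1.86% for each. Klrk1 measured 34.2, 22.1 and 73.4 CPM there in the Aachen, Bonn and Hamburg datasets, and Klrg1 measured 17.1, 44.3 and 5.64 CPM, so that Klrg1 was the higher of the pair in Bonn. The NK-defining genes were low in all T cells. Ncr1 reached 11.6 CPM in T_cell_2 and 6.84 CPM in T_cell_1, and Klrb1c reached 41.2 CPM in T_cell_1, where 8.55% of cells had a UMI. Klra4 and Klra8 were near the B cell level in T_cell_1 (0.219 and 0.340 CPM, against 0.359 and 0.330 CPM), and Klra8 stood at 7.39 CPM in T_cell_2.

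ILC2 held 1 receptor of the set. Klrg1 measured 79.9 CPM in Aachen, 112 CPM in Bonn and 95.8 CPM in Hamburg, and 17.5% of the 424 cells had a UMI. This was second only to NK_cell_1 and above T_cell_2 at 25.8 CPM, with datasets that did not overlap between these 3 clusters. All other members lay at or below 10.8 CPM in ILC2 (Klrk1), and Klra4 had no UMI in 424 cells, which allows a share of up to 0.708%.

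**Figure D4:**
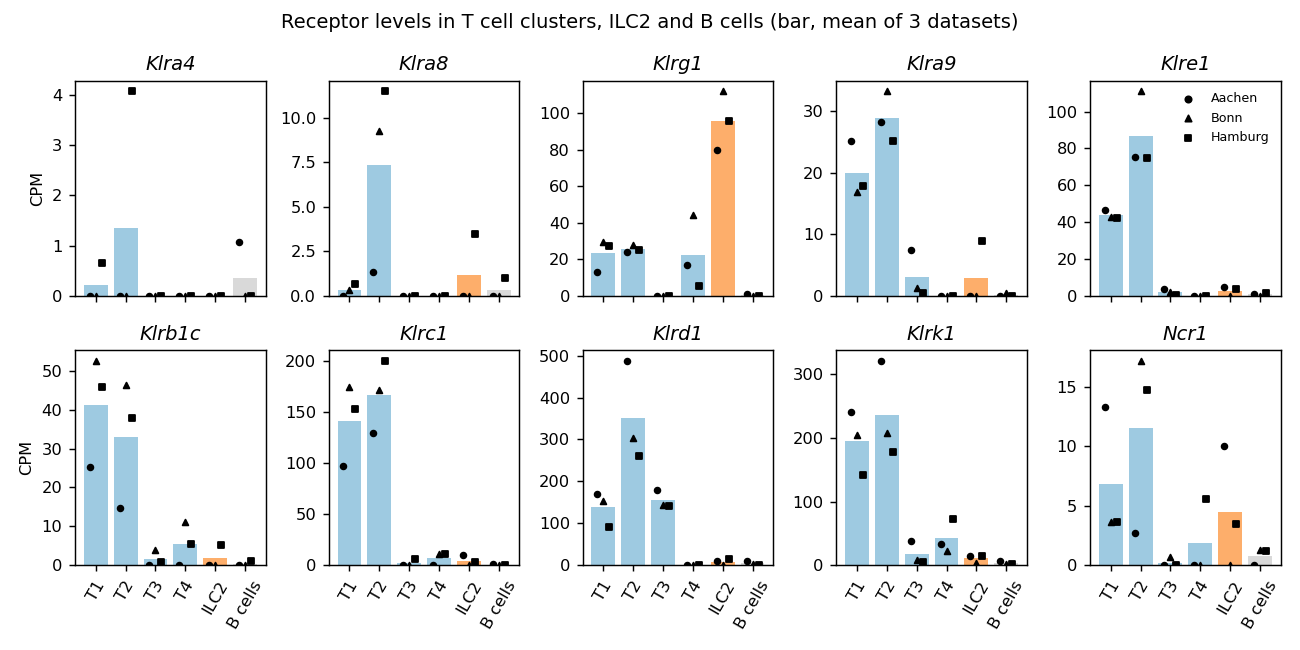
CPM of each receptor gene in the 4 T cell clusters (T1 to T4), ILC2 and B cells, with bars at the mean of 3 datasets, points for the datasets and a separate axis from 0 for each gene. Klrd1 is present in T1, T2 and T3, the Klrc1 bars are high only in T1 and T2, and Klrg1 is highest in ILC2.

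The genes that followed each member most closely over the 23 clusters were found by the Pearson correlation of log2(CPM + 10) among 6663 genes. These correlations are over clusters, which share libraries, and carry no test. Klra4 went with Serpinb9b (r = 0.989), Khdc1a (r = 0.983) and Klra8 (r = 0.967), and Klra8 went with Klra4, Serpinb9b and Klra3. Klra9, Klre1 and Klrb1c went with each other and with Klrc2, at r between 0.969 and 0.984, and Klrb1c also with Tnfrsf9 (r = 0.977). Klrc1 went with Xcl1 (r = 0.961), a chemokine gene at 4457 CPM in NK_cell_2 and 880 CPM in NK_cell_1, and with Klrc2 and Kcnj8. Ncr1 went with Styk1 (r = 0.972), Klrb1a and Klra9. Klrk1 went with Klrc1 (r = 0.919), Serpinb9 and Klre1. Klrg1 went with Gzmb (r = 0.913), Cma1 and Fhl2. Klrd1 had no close match, its best being Cd7 (r = 0.864), then Serpinb6b and Ccl5.

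The adaptors of these receptors were present in the NK clusters. Tyrobp (DAP12) averaged 3826 CPM in NK_cell_1, 2168 CPM in NK_cell_2 and 98.0 CPM in T_cell_1. Fcer1g, which encodes the FcR gamma chain, averaged 3195 CPM, 2819 CPM and 158 CPM, respectively. Hcst (DAP10) was at a similar level in NK_cell_1 (691 CPM), T_cell_1 (790 CPM) and T_cell_2 (868 CPM). Of 24 other NK receptor genes in the table, 4 lay higher and 3 lay lower in NK_cell_1 than in NK_cell_2 with dataset ranges that did not overlap. Klrb1b, an inhibitory receptor gene of the NK1.1 family, measured 144 CPM in NK_cell_1 and 561 CPM in NK_cell_2, and Cd160 measured 60.7 CPM and 363 CPM. Klrc2, the activating relative of Klrc1, measured 322 CPM and 260 CPM.

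Of 16 genes of NK identity and maturation, 10 lay higher in NK_cell_1 than in NK_cell_2 and 1 lay lower with dataset ranges that did not overlap. Ccl5 measured 22708 CPM and 4883 CPM, and Nkg7, a granule protein gene, measured 4460 CPM and 2047 CPM. Of 10 genes associated with type 1 innate lymphoid cells (ILC1), 8 lay lower in NK_cell_1 than in NK_cell_2 with dataset ranges that did not overlap. The ranges of the other 2 overlapped. Cxcr6 measured 24.7 CPM in NK_cell_1 and 548 CPM in NK_cell_2, and Cxcr3 measured 58.7 CPM and 279 CPM. The list was not particular to NK_cell_2. Summed over its 10 genes, the mean was 1980 CPM in NK_cell_2 and 243 CPM in NK_cell_1. It was 1651, 1268, 736 and 4163 CPM in T_cell_1 to T_cell_4, and 1838 CPM in ILC2. These lists were chosen with the clusters known. The share of all genes that separated the NK clusters is not given here. The counts for these lists, the other NK receptor genes and the members are therefore descriptions only.

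Whether the receptors differed between kidney compartments was tested on summed counts of each library, with the dataset as a block (edgeR quasi-likelihood test, adjusted over all genes tested). In NK cells, 0 of the 10 members were called between medulla (the mean of OM and IM) and cortex, and 0% of the 2908 genes tested were called. At an unadjusted p under 0.05 there was 1 member, Klra8, against 4.54% of all genes. DESeq2 called 0 members at either threshold.

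On the CPM scaled by the fit (TMM normalization), Klra8 measured 372, 497 and 783 CPM in cortex, OM and IM of Aachen, 531, 260 and 769 CPM in Bonn, and 212, 477 and 440 CPM in Hamburg. Both medullary libraries lay above the cortex in Aachen and Hamburg, while in Bonn the IM lay above and the OM below. The log2 difference was 0.60 ± 0.23 (SE; 95% interval 0.11 to 1.09; edgeR adjusted p = 0.900). Klra4 measured 162, 298 and 515 CPM in Aachen, 531, 471 and 461 CPM in Bonn, and 209, 374 and 309 CPM in Hamburg. Its log2 difference was 0.42 ± 0.21 (interval -0.020 to 0.86). It was higher in the medulla in 2 of 3 datasets.

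Of the remaining members, Klrg1 differed by 0.48 ± 0.24 (SE, log2 scale), Klrb1c by 0.28 ± 0.16 and Klre1 by 0.25 ± 0.15. The differences of Klra9, Ncr1, Klrk1, Klrd1 and Klrc1 lay between -0.12 and 0.13, and their 95% intervals all stayed within -0.53 and 0.49. None of these differences passed the adjusted threshold. No member had cortex libraries separate from all medulla libraries, compared with 0.378% of all genes.

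The call for Klra8 and Klra4 turned on the Bonn dataset. Without Bonn, 2 of 10 members were called, against 0.958% of 5428 genes, with log2 differences of 1.04 for Klra8 (edgeR adjusted p = 0.000109) and 0.86 for Klra4 (adjusted p = 0.00957). Without the Bonn OM library alone, a fit chosen after seeing the data, 1 of 10 members was called, Klra8 (0.86, adjusted p = 0.000176), against 0.627% of 5904 genes. In all of these fits both NK clusters were summed, and the clusters were not in equal parts in each library. Of the Aachen NK cells, NK_cell_2 made up 65.7% (cortex), 31.6% (OM) and 35.4% (IM), compared with 67.6%, 39.9% and 49.3% in Hamburg and 43.0%, 63.2% and 31.7% in Bonn. The mean share in the medulla was 16.9 percentage points lower, with an exact permutation p of 0.185 (two-sided, labels permuted within each dataset, 27 arrangements, smallest possible p 0.0370).

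Within NK_cell_1 alone, where the Bonn OM library was also left out, for its 7 cells, the log2 difference was 0.19 (95% interval -0.21 to 0.60) for Klra8 and -0.11 (interval -0.53 to 0.32) for Klra4, and 0 of 10 members were called (edgeR), where 0.145% of 3458 genes were called. No member had an unadjusted p under 0.05, against 2.89% of genes. Within NK_cell_2, 7 members could be tested and none was called, where 0% of 1155 genes were called. No member had an unadjusted p under 0.05 there either, against 5.28% of genes. In the summed counts of all NK cells, a smaller share of one kind of NK cell and less RNA per cell cannot be told apart. The part of the cluster shares in the values of the summed NK cells was not tested.

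**Figure D5:**
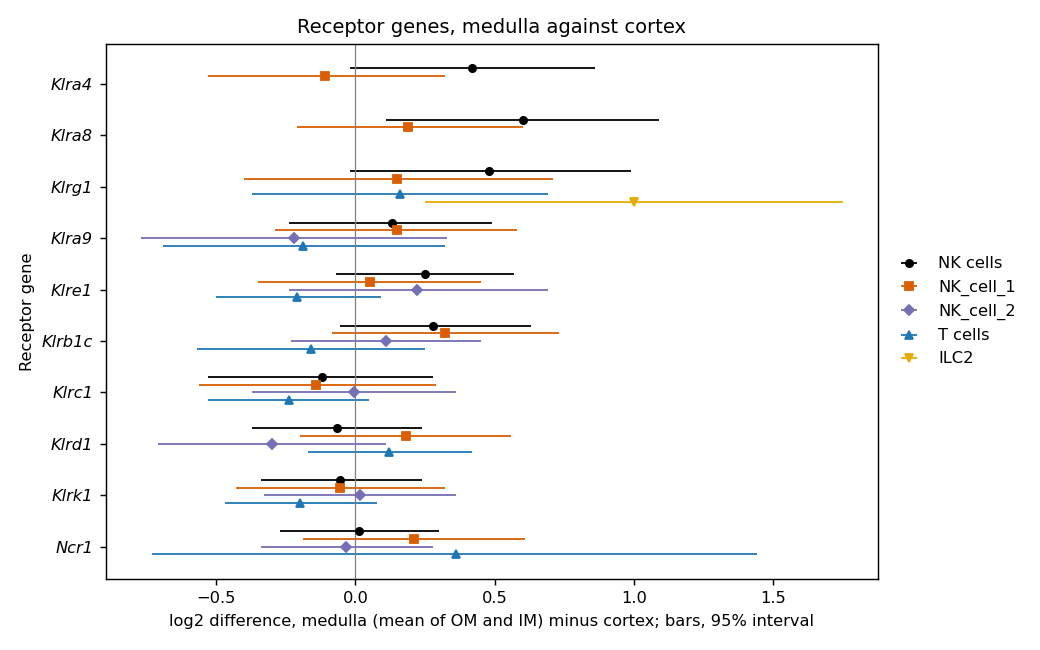
Log2 difference between medulla and cortex of each receptor gene with its 95% interval, from edgeR fits of all NK cells, of each NK cluster alone, of T cells and of ILC2. Klra8 in all NK cells and Klrg1 in ILC2 have intervals above 0, none of the differences passed the adjusted threshold, and the values of Klra4 and Klra8 lie nearer to 0 within NK_cell_1.

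OM and IM did not separate the members either. In NK cells 0 of 10 members were called between OM and IM (edgeR; 0% of genes called), with 0 members at an unadjusted p under 0.05 against 2.24% of all genes. The largest difference was that of Klrg1, at 0.60 ± 0.30 (SE, log2 scale, OM minus IM; interval -0.023 to 1.22). Klra8 was at -0.40 ± 0.27, lower in OM in Aachen and Bonn but not in Hamburg (477 CPM in OM and 440 CPM in IM). The Bonn OM value of 260 CPM rests on 19 NK cells, of which 63.2% were NK_cell_2.

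The share of NK cells with a UMI was compared as well, at 500 UMIs per cell. Klra4 was seen in 7.59%, 12.9% and 14.5% of NK cells in cortex, OM and IM (means of 3 datasets), a difference of 6.09 percentage points that had the same sign in 3 of 3 datasets. Its exact permutation p was 0.0370, the smallest the design allows, and 0.370 after adjustment over the 10 members. The difference was 3.15 points at 300 UMIs per cell (exact p = 0.148) and 2.30 points in unthinned cells (exact p = 0.593), where Bonn went the other way. Klrc1 was seen in 31.4%, 23.3% and 24.8%, a difference of -7.36 points (exact p = 0.0741, adjusted p = 0.370), which was -2.40 points at 300 UMIs (exact p = 0.593), where Bonn turned to 5.58 points. At 500 UMIs, no other member had an exact p below 0.148. With 27 arrangements and 10 members, a member on its own cannot pass the adjusted threshold. These shares pool both NK clusters. At 500 UMIs, Klra4 was seen in 20.2% of NK_cell_1 and 0.193% of NK_cell_2 cells, and Klrc1 in 18.8% and 36.4%. The part of the cluster shares in these differences was not tested.

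NK cells made up 6.47% ± 1.45 of all cortical cells, 4.16% ± 2.33 of OM cells and 5.49% ± 2.86 of IM cells (SD, n = 3). The difference between medulla and cortex was -1.65 points (exact permutation p = 0.370). It came from Bonn, at -4.80 points, while Aachen and Hamburg were at 0.0311 and -0.168 points.

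The 4 T cell clusters were summed as well, and they were not in equal parts in each library. In cortex, OM and IM of Aachen, T_cell_1 made up 218 of 423, 146 of 443 and 306 of 673 T cells. In Bonn these counts were 618 of 1196, 53 of 118 and 145 of 291. In Hamburg they were 543 of 997, 152 of 456 and 194 of 639. In T cells, 8 members had enough counts to be tested, all but Klra4 and Klra8. None was called between medulla and cortex (edgeR), where 0.0117% of the 8522 genes were called, and none had an unadjusted p under 0.05, against 5.90% of all genes. Klrc1 came nearest, at -0.24 ± 0.14 (SE, log2 scale, adjusted p = 0.937), and Klrk1 was lower in the medulla in all 3 datasets, at -0.20 ± 0.13 (adjusted p = 0.967). Klrd1 lay at 0.12 ± 0.14. No tested member separated cortex from medulla libraries, against 0.598% of all genes. Between OM and IM, again 0 of 8 were called (0% of genes), with 0 at an unadjusted p under 0.05 against 3.47% of genes. DESeq2 called 0 members in both comparisons. Between medulla and cortex, T_cell_1 alone had 3 of 7 members at an unadjusted p under 0.05 (edgeR, 444 of 6755 genes). Its median log2 difference of the members was -0.44. T_cell_2 alone had 2 of 6 (229 of 5267 genes), with a median of 0.064, and T_cell_3 alone had 0 of 1. All T cells thinned to 500 UMIs had 2 of 4 (276 of 3872 genes). No member was called in these fits. The difference between the NK and T cell contrasts was tested as an interaction, and no member was called while 3 of 7780 genes were, the smallest unadjusted p being 0.0347 for Klre1 (NK minus T 0.45).

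In ILC2, Klrg1 was the only member with enough counts. For cortex, OM and IM, the Aachen libraries held 1, 10 and 5 Klrg1 UMIs, the Bonn libraries 16, 10 and 8, and the Hamburg libraries 13.8, 19.6 and 19.9. On the scaled CPM of the fit, the cortex libraries stood at 23.6, 102 and 80.7 CPM and the 6 medullary libraries between 118 and 258 CPM. The groups did not overlap, which was also the case for 0.724% of the 1381 genes tested. The medulla was 1.99-fold higher (95% interval 0.25 to 1.75 on the log2 scale, where the SE was 0.34), a difference with an unadjusted p under 0.05 that did not pass the adjusted threshold (edgeR adjusted p = 0.532), where 0.0724% of genes were called and 6.37% had an unadjusted p under 0.05. The low count in the Aachen cortex is 1 UMI in 36 cells, and without Aachen the log2 difference was 0.79. In the order Aachen, Bonn, Hamburg, Klrg1 was detected in 2.78%, 26.2% and 15.5% of cortical ILC2, in 9.47%, 41.7% and 24.1% of OM ILC2, and in 8.33%, 30.4% and 26.9% of IM ILC2. Each medullary share lay above the cortical share of its own dataset, but the Bonn OM and IM shares rest on only 12 and 23 ILC2. Between OM and IM the difference was 0.30 ± 0.38 (adjusted p = 0.999; 0% of genes called, and 4.49% at an unadjusted p under 0.05).

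The genes around the receptors were not called either. Of 12 adaptor and signalling genes, 11 were tested in NK cells, 0 rose and 0 fell between medulla and cortex, and their median log2 difference was 0.063, beside 0.012 over all genes. Of the 24 other NK receptor genes, 15 were tested in NK cells and 0 were called, with a median of 0.12. The 16 genes of NK identity and maturation had a median of 0.48 and 14 of them were higher in the medulla. The 7 tested genes associated with ILC1 had a median of -0.34. Of the 16, 6 had an unadjusted p under 0.05, against 4.54% of all genes. None of these genes was called, and both lists also separate the NK clusters. Of 19 ligand genes, 16 were in the table and 7 were tested in NK cells, with 0 called. Qa-1 (H2-T23) measured 324 CPM in NK_cell_1 and 447 CPM in NK_cell_2, and H2-D1 measured 4035 CPM and 4399 CPM. Of 12 lymphocyte identity genes, 4 were tested in NK cells and 0 were called; Cd3g stood at 43.6 CPM in NK_cell_1 and 141 CPM in NK_cell_2. In T cells and ILC2 no gene of these lists was called in either comparison. In T cells, the genes associated with ILC1 had a median of 0.33 between medulla and cortex, opposite in sign to NK cells. Of these 10 genes, 7 had an unadjusted p under 0.05, against 5.90% of all genes.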

How the data were processed

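Single-cell RNA was measured in CD45+ cells from kidney cortex, OM and IM at 3 sites. The authors aligned reads to mm10 with Cell Ranger, filtered, integrated and clustered cells with Seurat, and deposited 1 table of expected counts (1 UMI value for each gene in each cell), with compartment, cluster and site as further columns. Aachen and Bonn values were whole. Hamburg values were fractional by a step not given in the sources used here, and were rounded after summing. No doublets were removed here, and no cell was filtered further.

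Counts were summed per library and class, leaving out libraries with fewer than 10 cells, and tested with edgeR 4.0.16 in R 4.3.3 (filterByExpr, TMM, quasi-likelihood test, dataset as block, Benjamini-Hochberg over all genes tested, threshold 0.05). DESeq2 was an alternative. Libraries of 1 dataset deviated together (correlations of 0.656 to 0.878 in NK cells), so datasets pair the libraries. Shares were tested by exact permutation within datasets after drawing 500 UMIs per cell. Depth was 2122809 to 15267126 UMIs per library. The upper limits given where no UMI was found cover counting error only. The intervals of the differences between compartments come from the edgeR quasi-likelihood fits and also include the spread between libraries. Scripts were tested on simulated data.

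The named genes were all 10 members, at most 4 genes of each list (those called first, then those with the highest mean CPM in NK cells) and, for each member, the 3 genes of most similar pattern. Markers of cell types were named in checks. Members and lists were chosen with earlier results of these data known. Sequences are RefSeq, with windows for 8 of 10 members, and positions are GENCODE vM21.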

Additional observations from a re-analysis of the deposited data

Results flagged for a closer look

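Some members were above the B cell level outside NK cells, T cells and ILC2. Klrd1 measured 361 CPM in pDC (83.8% of 99 cells with a UMI), 409 CPM in cDC2 (55.1% of 668 cells) and 41.7 CPM in cDC1, against 4.88 CPM in B cells. These are clusters of plasmacytoid and conventional dendritic cells. Klrc1, which encodes the partner chain of CD94, had no UMI in the 99 pDC (which allows a share of up to 3.03%) and stood at 7.81 CPM in cDC2. Ncr1 stood at 15.8 CPM in pDC and 4.85 CPM in cDC2. After thinning to 500 UMIs, Klrd1 was seen in 19.2% of pDC and 13.6% of cDC2 cells, against 0.144% of B cells. Klrk1 measured 86.6 CPM in cDC1 (37.0% of 303 cells), 84.6 CPM in cDC2 (23.1%) and 61.7 CPM in the Isg+_Macrophage cluster (12.1%), against 3.95 CPM in B cells. In the proliferating cluster Prolif._cell, Klrd1 measured 83.4 CPM, Klrc1 62.3 CPM and Klrk1 50.1 CPM. Groups of 3 datasets are too small for a search for single samples that stand apart.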

How the results depend on the processing

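With edgeR and DESeq2, the count of called members was 0 in all 6 main comparisons. In NK cells between medulla and cortex it ranged from 0 to 2 when a dataset was left out, and was 1 without the Bonn OM library, a setting chosen after seeing the data, as was NK_cell_2 alone. The causes were not tested. Of 64 alternatives for these counts, 62 kept the count at 0. Without the replicate block, 0 members were called in each comparison. Klrg1 in ILC2 gave no value without Hamburg or after thinning, where it had too few counts.

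Of 215 alternatives for the log2 differences between medulla and cortex, 185 kept direction and call, and 3 passed the threshold (Klra8 at 1.04 and Klra4 at 0.86 without Bonn, Klra8 at 0.86 without the Bonn OM library). In NK cells, signs turned as follows: NK_cell_1 alone gave -0.11 for Klra4 and 0.18 for Klrd1; NK_cell_2 alone gave -0.22 for Klra9, 0.017 for Klrk1 and -0.034 for Ncr1; NK cells with no Cd3 UMI gave -0.0094 for Ncr1. Thinning gave -0.035 for Klra9, 0.18 for Klrd1 and -0.019 for Ncr1. No replicate block gave -0.041 for Klra9 and 0.00068 for Klrd1, and no low-count filter gave -0.064 for Ncr1. Without the Bonn OM library Klrd1 was at 0.044 and Ncr1 at -0.021. Leaving out 1 dataset in turn gave -0.14 to 0.20 for Klra9, -0.20 to 0.090 for Klrd1 (highest without Bonn), -0.12 to 0.0072 for Klrk1 and -0.085 to 0.055 for Ncr1, -0.015 without Hamburg. In T cells, T_cell_2 alone gave 0.55 for Klrb1c, 0.050 for Klrc1 and 0.078 for Klrk1. Klrd1 was at -0.57 in T_cell_1 and -0.030 in T_cell_3. Leaving out 1 dataset gave -0.45 to 0.29 for Klrb1c, -0.37 to 0.021 for Klrc1 and -0.25 to 0.59 for Klrg1. None of the values with a turned sign passed the threshold.

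For the shares, in percentage points, Klra9 was at -1.46 when thinned to 300 UMIs, -3.02 unthinned and -0.164 to 2.97 with 1 dataset left out. Klrk1 was at 2.14 when thinned to 300 UMIs and -8.56 to 4.51 with 1 dataset left out. Ncr1 was at -3.54 unthinned and -1.70 to 4.05 with 1 dataset left out, and Klrd1 at -5.74 to 2.26. The NK share difference ranged from -2.48 to -0.0682 and that of NK_cell_2 from -27.6 to -9.30 when a dataset was left out. Over all genes, NK cells gave 52 calls without Bonn, 37 without the Bonn OM library, 14 without a low-count filter and 5 in NK_cell_1 alone, against 0. T cells gave 107 calls without the filter, 37 without Bonn and 13 in T_cell_1 alone, against 1, and ILC2 gave 32 without the filter and 8 without Aachen, against 1. Klrg1 in ILC2 rested on 1 to 19.9 UMIs per library.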
